A study of Mus musculus with 64 samples.

Results

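The receptors for the neuropeptides somatostatin and neuropeptide Y (NPY) were followed from the neonatal period to adulthood in a mouse line with the Arg87Cys change in *Cyfip2*, beside wild-type littermates, in frontal cortex and hippocampus. The set held 7 genes of the 18432 in the table, *Sstr1*, *Sstr2*, *Sstr3*, *Sstr4*, *Npy1r*, *Npy2r* and *Npy5r*, found by matching the Ensembl gene ID of each row to these symbols in GENCODE release M21. All 7 passed the filter on low values in every comparison. The genes were picked by family name, but with earlier results from these libraries known, among them the higher *Sstr2* in knock-in hippocampus at postnatal week (PWK) 14 and its difference from cortex. Receptor values of the hippocampal genotype contrast at PWK 14, and those of the difference between regions at PWK 14, are therefore given as a description with no p. Where a receptor is counted or named as past the threshold there, that too is a description, and nothing is read from it.

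RNA was sequenced from heterozygous Cyfip2 +/R87C knock-in mice (KI) and wild-type mice (WT), all C57BL/6N, at PWK 1, 7, 14 and 28. Frontal cortex and hippocampus of both hemispheres were taken from each mouse. There were 4 KI and 4 WT libraries for each region and age, 64 in all. The change is constitutive and not limited to a cell type. The libraries are of whole tissue, so that for any gene below fewer cells of a type and less RNA per cell cannot be told apart.

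Somatostatin and NPY are released mainly by GABAergic interneurons, the inhibitory neurons of cortex and hippocampus. All 7 receptors couple to inhibitory G proteins of the Gi/o class, which slow cAMP synthesis by adenylyl cyclase and can open inwardly rectifying potassium channels (GIRK channels). *Npy1r* is known mainly as a postsynaptic receptor and *Npy2r* mainly as a presynaptic one, which limits glutamate release in the hippocampus and also acts as an autoreceptor on NPY neurons.

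The genes lie on 6 chromosomes of GRCm38. *Sstr1* is on chromosome 12 (58211772 to 58214444, plus strand), *Sstr2* on chromosome 11 (113619342 to 113626028, plus strand), *Sstr3* on chromosome 15 (78537008 to 78544685, minus strand) and *Sstr4* on chromosome 2 (148395344 to 148396767, plus strand). *Npy2r* is on chromosome 3 (82538383 to 82548084, minus strand). *Npy5r* (66679965 to 66688128, minus strand) and *Npy1r* (66697192 to 66706792, plus strand) are neighbours on chromosome 8 that point away from each other, with 9064 bp between their starts. RefSeq promoter windows of GRCm38.p6 were held for 6 of the 7 genes, and *Sstr1* was not matched. The 250 bases before the RefSeq start are shown for *Sstr2*, whose level in hippocampus differed most among the receptors between the genotypes at PWK 14, and for *Npy2r*, whose level differed most between regions. They lie at chr11:113619077-113619326 (plus strand) and at chr3:82548086-82548335 (minus strand), written 5′ to 3′ along the gene. Capitals mark the palindromic cAMP response element (CRE), TGACGTCA.
*Sstr2*: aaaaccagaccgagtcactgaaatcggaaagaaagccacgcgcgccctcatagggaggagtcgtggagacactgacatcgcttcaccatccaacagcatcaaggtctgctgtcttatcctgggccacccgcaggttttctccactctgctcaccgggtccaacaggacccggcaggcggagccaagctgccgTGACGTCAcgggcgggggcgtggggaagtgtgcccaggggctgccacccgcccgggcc
*Npy2r*: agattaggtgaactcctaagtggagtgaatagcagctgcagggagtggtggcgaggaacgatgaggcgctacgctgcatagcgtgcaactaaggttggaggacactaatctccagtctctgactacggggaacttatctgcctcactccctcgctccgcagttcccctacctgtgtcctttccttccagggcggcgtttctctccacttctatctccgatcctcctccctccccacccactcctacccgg
The motifs searched on both strands of these windows were the CRE, its core TGACG, which the CRE holds on each strand, and the TATA box TATAAA. *Sstr2* held the CRE 58 bases before its start. No other matched receptor held one, while 1.55% of the 32851 promoter windows in the RefSeq table did. Apart from *Npy2r*, the windows of the other matched receptors are not shown because they hold transcribed bases of GENCODE models. Absence of a motif in them is therefore not set against *Sstr2*. The core TGACG, found in 17.8% of all windows, was also present 9 bases before 1 of the 2 listed starts of *Sstr3*. The sequence read past the other start was not found in a GENCODE transcript of that gene. The TATA box, found in 12.4% of all windows, was in none of the receptors' windows. A match of letters is a description and not a measured binding site.

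Library totals were between 29.2 and 32.6 M normalized counts, a range that scaling has already narrowed. The edited gene, *Cyfip2*, lay between 14909 and 44053 normalized counts in WT and between 15311 and 38975 in KI libraries, and a gene-level value cannot show the changed codon. The region labels were checked against markers. In WT mice 3 of 4 dentate granule cell markers at PWK 7 and 14, and all 4 at PWK 1 and 28, were higher in hippocampus, and 2 of 3 cortical layer markers were lower there at each age. In KI hippocampus at PWK 14, replicate 1 stood apart from the other 3 libraries. It held 305644 normalized counts of 5 astrocyte markers against 187278 to 193233 in the others, 12128 against 5408 to 7613 of 4 microglial markers and 111755 against 141491 to 180000 of 3 excitatory neuron markers. It was also lowest for 4 oligodendrocyte markers (71143 against 109548 to 129764) and 4 dentate granule cell markers (7767 against 10715.5 to 12813). Results that rest on this group are given with it, and again without it for the receptors, the ligands and the gene lists.

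The levels of the receptors in WT tissue were compared per length, as normalized counts per kb of the mean coding transcript. In WT hippocampus at PWK 28, *Npy2r* was highest at 654 ± 34.4 per kb (SD, n = 4 here and for the following levels). *Sstr4* at 411 ± 47.8 and *Sstr3* at 409.8 ± 20.9 came next, and their libraries overlapped. *Npy1r* followed at 296 ± 12.8, then *Sstr2* at 189.5 ± 40.0, *Sstr1* at 145 ± 12.4 and *Npy5r* at 116 ± 7.96, each with its 4 libraries below those of the gene before. In WT cortex at PWK 28, the order was led by *Sstr3* at 432 ± 43.6 and *Sstr2* at 349 ± 30.7 per kb. *Npy1r* at 275 ± 25.1 and *Sstr4* at 246 ± 38.7 overlapped. *Sstr1* at 166 ± 23.6, *Npy5r* at 87.3 ± 7.59 and *Npy2r* at 42.4 ± 2.27 per kb were each apart from their neighbours. *Npy2r* thus took the top place in adult hippocampus and the lowest in adult cortex. At PWK 1 *Sstr2* led in both regions, at 592 ± 71.1 per kb in cortex, where it overlapped with *Sstr1* at 488 ± 64.3, and at 680.4 ± 33.2 in hippocampus, where it was apart from *Npy2r* at 454 ± 17.9.

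**Figure D1:**
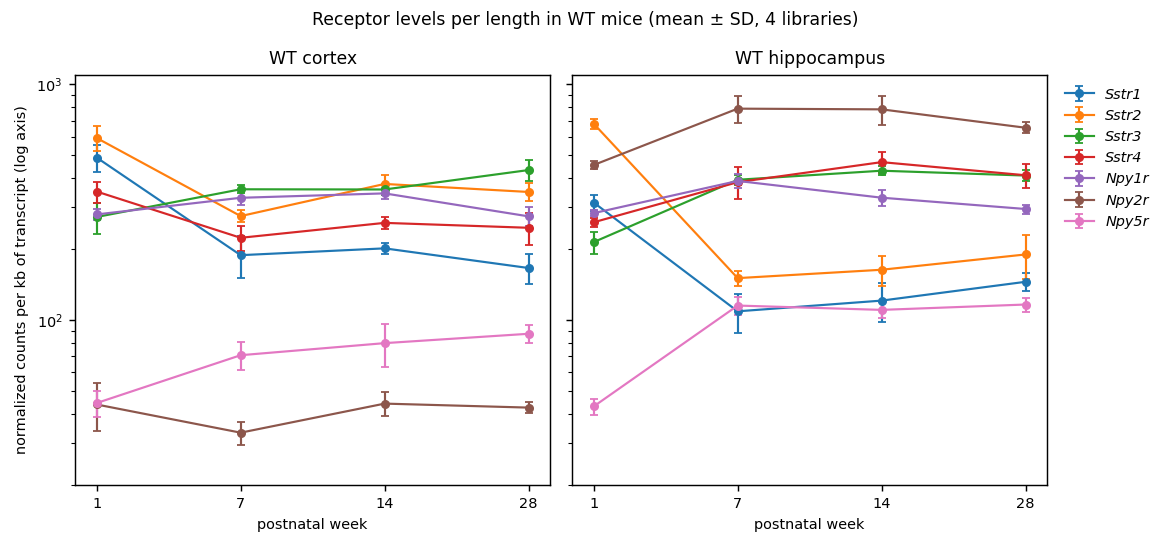
Level of each receptor in WT cortex (left) and hippocampus (right) against postnatal week, as normalized counts per kb of coding transcript on a log axis; points are means and bars SD of 4 libraries. From PWK 7 on *Npy2r* is the lowest line in cortex and the highest in hippocampus, and *Sstr2* and *Sstr1* fall between PWK 1 and 7 in both regions.

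Maturation without the mutation was examined with limma's test on log2(value + 1) in the 16 WT libraries of a region, with Benjamini-Hochberg adjustment over all genes tested. A gene was called at an adjusted p under 0.05. Between PWK 1 and 7, all 7 receptors were called in each region, where 65.5% of all genes tested were called in cortex and 62.2% in hippocampus. *Sstr2* fell most in hippocampus. Its WT libraries there held 1096, 1132, 1024 and 1031 normalized counts at PWK 1 and 249.7, 249, 236 and 212 at PWK 7, a log2 change of -2.17 (adjusted p = 6.01e-11, SE 0.12). In cortex it fell from 931 ± 112 (SD, n = 4) to 434 ± 24.6 (SD, n = 4), a log2 change of -1.09 (adjusted p = 4.08e-09). *Sstr1* fell alongside, by a log2 change of -1.39 (adjusted p = 2.21e-08, SE 0.13) in cortex and -1.54 (adjusted p = 2.03e-08, SE 0.13) in hippocampus. *Npy5r* took the opposite course, with hippocampal values of 81.7, 79.4, 77.6 and 91.7 at PWK 1 and 221, 211, 248 and 206 at PWK 7, a log2 change of 1.41 (adjusted p = 6.11e-10, SE 0.09), and 0.67 (adjusted p = 0.000588, SE 0.15) in cortex. *Sstr3*, a receptor known from neuronal cilia, and *Npy1r* also rose in both regions, *Sstr3* by log2 changes of 0.40 in cortex and 0.88 in hippocampus and *Npy1r* by 0.23 and 0.45 (adjusted p between 5.2e-09 and 0.00601).

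*Sstr4* and *Npy2r* moved in opposite directions in the 2 regions over the same step. The WT hippocampal libraries held 1047, 1138, 1136 and 1089.7 normalized counts of *Npy2r* at PWK 1 and 2109, 2062, 1549 and 1931 at PWK 7, with no overlap, a log2 change of 0.78 (adjusted p = 1.48e-06, SE 0.10). In cortex *Npy2r* fell from 106 ± 24.6 (SD, n = 4) to 80.6 ± 9.23 (SD, n = 4), a log2 change of -0.37 (adjusted p = 0.0356, SE 0.15), which was no longer called when any of 4 of the libraries was left out. *Sstr4* changed by -0.65 (adjusted p = 5.21e-05, SE 0.11) on the log2 scale in cortex and by 0.55 (adjusted p = 0.000152, SE 0.10) in hippocampus. From PWK 7 to 28 the steps were smaller, and 5 of the 14 member tests were called, where 20.5% of all genes tested were called in cortex and 17.5% in hippocampus. *Npy1r* fell by log2 changes of -0.26 (adjusted p = 0.0112, SE 0.07) in cortex and -0.39 (adjusted p = 0.000365, SE 0.06) in hippocampus, where its libraries moved from 1033, 1101, 1214 and 1139 to 857, 866, 801 and 888 without overlap. *Sstr2* rose in cortex by 0.34 (adjusted p = 0.0126, SE 0.09). The other calls were *Sstr3* in cortex (0.27, adjusted p = 0.0430, SE 0.09) and *Sstr1* in hippocampus (0.43, adjusted p = 0.0369, SE 0.13), and each lost its call when any of several single libraries was left out. The remaining 9 changes were between -0.26 and 0.36 on the log2 scale and did not pass the threshold.

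Hippocampus and cortex of WT mice were then compared at each age. Of the 28 member tests 20 were called, 12 of them higher in hippocampus, where 34.7%, 40.8%, 34.6% and 37.8% of all genes tested were called at PWK 1, 7, 14 and 28. *Npy2r* differed most. At PWK 28 its libraries held 99.1, 97.4, 108 and 108 normalized counts in cortex and 1538, 1698, 1603 and 1509.6 in hippocampus, 15.4-fold more. The log2 difference was 3.93 (adjusted p = 7.15e-11, SE 0.07), and its p was the smallest of the 18400 genes tested at that age. At the earlier ages hippocampus held 10.4, 23.7 and 17.7 times the cortical mean at PWK 1, 7 and 14, with log2 differences of 3.39, 4.55 and 4.13 (adjusted p = 2.08e-08, 4.68e-10 and 4.41e-10). The 2 regions did not overlap at any age. *Sstr4* was lower in hippocampus at PWK 1 by a log2 difference of -0.43 (adjusted p = 0.00213, SE 0.08) and higher from PWK 7 on, by 0.78, 0.85 and 0.75 at PWK 7, 14 and 28 (adjusted p between 1.02e-05 and 0.000383). *Npy5r* was likewise higher in hippocampus from PWK 7 on, by 0.70, 0.49 and 0.41 (adjusted p between 0.000618 and 0.0199), and differed by -0.04 at PWK 1. The PWK 14 call was lost without any of 4 single libraries.

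*Sstr2* had the reverse pattern to *Sstr4*. Its WT libraries at PWK 14 held 666, 577, 536 and 597 normalized counts in cortex and 269, 304, 219.7 and 235 in hippocampus, a log2 difference of -1.21 (adjusted p = 3.98e-06, SE 0.11). The difference was -0.87 at PWK 7 and -0.90 at PWK 28, both called, and 0.21 (adjusted p = 0.0688, SE 0.08) at PWK 1. *Sstr1* was lower in hippocampus at PWK 1, 7 and 14, with log2 differences of -0.63, -0.78 and -0.75 (adjusted p between 0.000315 and 0.00184), and overlapped at PWK 28 (-0.19, adjusted p = 0.227, SE 0.11). The log2 differences of *Sstr3* and *Npy1r* between regions were smaller, from -0.35 to 0.26 and from -0.06 to 0.24. *Sstr3* was called at PWK 1 (-0.35) and PWK 14 (0.26) in opposite directions, the PWK 1 call being lost without any of 5 single libraries, and *Npy1r* only at PWK 7 (0.24, adjusted p = 0.0132, SE 0.07).

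The genotypes were compared within each region and age, the question being how the mutant brain departs from WT as the mice age. At PWK 1 and 7 no receptor was called by limma in either region, with 3 of these 28 tests at an unadjusted p under 0.05, and the log2 fold changes lay between -0.23 and 0.31. Few genes of any kind were called there, at PWK 1 and 7 0.00546% and 0.00545% of those tested for cortex and 0.0109% and 0.0218% for hippocampus. At the later ages *Sstr1* was called higher and *Npy1r* lower in KI cortex at PWK 28, *Npy1r* lower in KI cortex at PWK 14 and *Npy2r* lower in KI hippocampus at PWK 28. *Sstr3*, *Sstr4* and *Npy5r* were called in no comparison of the genotypes. The share of all genes tested that was called in cortex was 5.18% at PWK 14 (2.48% with more in KI, 2.70% with less) and 22.2% at PWK 28 (12.2% with more in KI), and with 7 genes the 1 and the 2 receptors called there are not read as a result about the family. In hippocampus the share was 15.6% at PWK 14 (7.64% with more, 7.95% with less) and 15.8% at PWK 28 (8.92% with more, 6.91% with less). At PWK 28, 1 of 7 receptors (*Npy2r*) was past the threshold, which is not read as a result about the family either. Since the PWK 14 contrast was known when the genes were chosen, nothing is read from a count of receptors in it. At PWK 14 and 28, the median log2 fold change of the receptors was -0.21 and 0.13 for cortex and -0.0011 and 0.05 for hippocampus, where that of all genes was between -0.0034 and 0.0060. With libraries scaled to equal totals, the share of called genes that were higher in KI became 60.4% in place of 47.8% for cortex at PWK 14, 43.7% in place of 54.8% for cortex at PWK 28 and 40.6% in place of 56.3% for hippocampus at PWK 28. No receptor's call between the genotypes was lost under that scaling. Outside hippocampus at PWK 14, *Npy2r* in cortex at PWK 28 was the 1 call added.

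**Figure D2:**
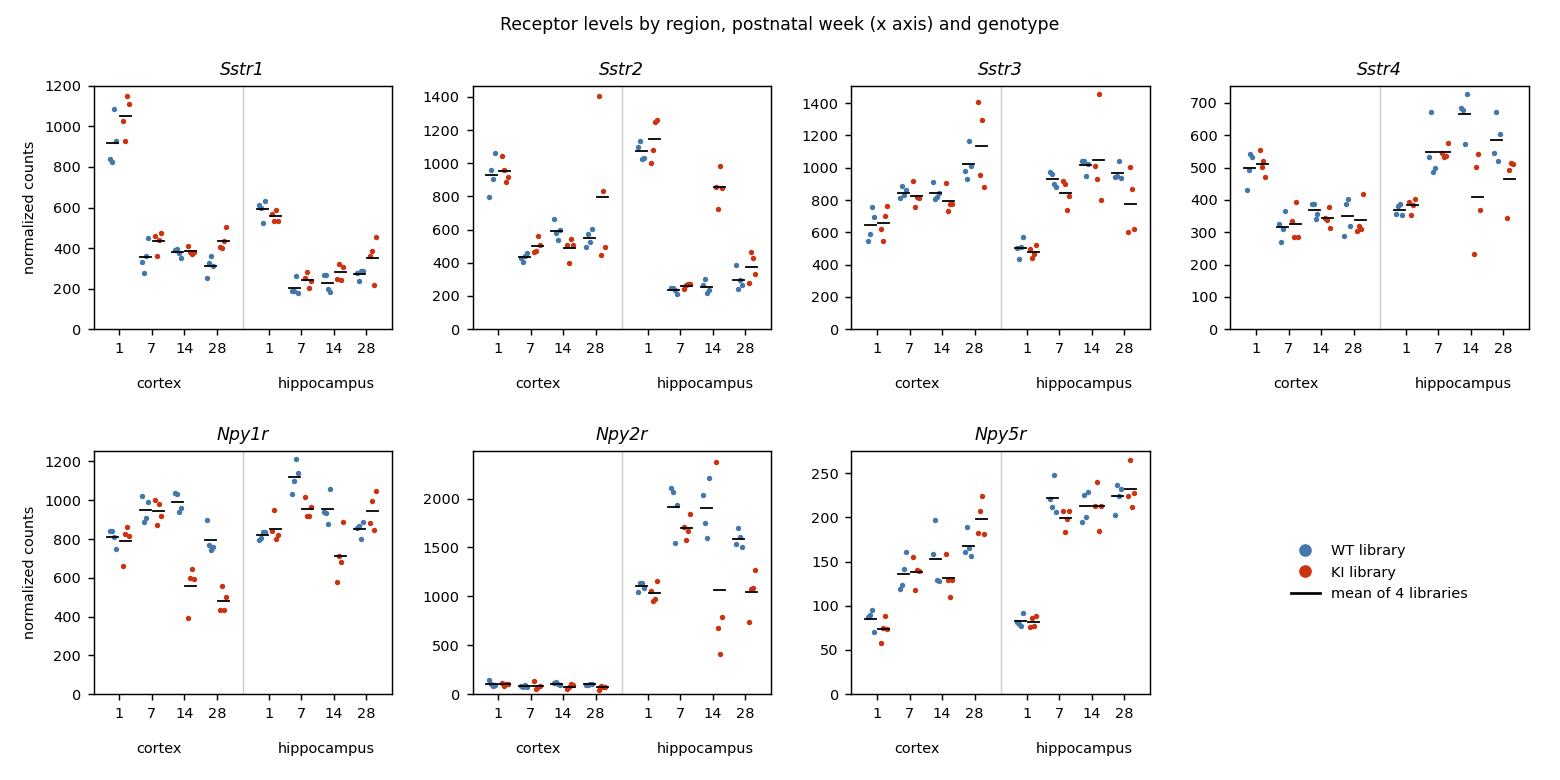
Normalized counts of each receptor (y axis, from 0) in every library, by postnatal week (x axis) in cortex and hippocampus; blue points are WT and red points KI libraries, and black lines the mean of 4. *Sstr2* in KI hippocampus at PWK 14 (726 to 986) lies above WT (219.7 to 304), and *Npy1r* in KI cortex at PWK 14 and 28 lies below WT.

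*Sstr2* was the receptor with the largest difference. In hippocampus at PWK 14 the KI libraries held 859, 726, 986 and 848 normalized counts and the WT libraries 269, 304, 219.7 and 235. Every KI library was above every WT library, and the KI mean was 3.33 times that of WT, a log2 fold change of 1.73 (SE 0.13). It was between 1.66 and 1.82 when any 1 library was left out, and 1.73 (SE 0.14) without KI replicate 1. Of 3 choroid plexus markers, the KI libraries held 1768, 17441, 96033 and 84657 normalized counts, listed by replicate as the *Sstr2* values are. The WT libraries held 2069, 17771.5, 101783 and 1920, so that the genotypes overlapped. The part of choroid plexus tissue in the *Sstr2* values was not tested. The KI level at PWK 14 was below the 1003 to 1262 of KI hippocampus at PWK 1 and above the 240.4 to 273 at PWK 7. At PWK 28 the KI libraries held 281, 468, 428 and 331 and the WT libraries 386, 244, 299 and 264, which overlapped, with a log2 fold change of 0.33 (adjusted p = 0.237, SE 0.18). In cortex at PWK 28, *Sstr2* was uneven among the KI libraries, at 1407, 446, 833 and 498 against 496, 576, 523 and 602 in WT. KI replicates 1 and 3 lay above all WT libraries and replicates 2 and 4 within or below them, and the log2 fold change was 0.38 (adjusted p = 0.390, SE 0.30). At PWK 14 cortical *Sstr2* was at 509, 396, 543 and 504 in KI libraries and 666, 577, 536 and 597 in those of WT, which overlapped, a log2 fold change of -0.29 (adjusted p = 0.156, SE 0.11).

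*Sstr1* was higher in KI cortex at PWK 28. The KI libraries held 407, 399, 434 and 503 normalized counts and the WT libraries 254, 326, 361 and 309. All KI libraries were above all WT libraries, by 1.39 times in the mean, and the log2 fold change was 0.48 (adjusted p = 0.0193, SE 0.12). In hippocampus it was 0.31 (SE 0.16) at PWK 14, 0.36 without KI replicate 1, and 0.32 (adjusted p = 0.285, SE 0.19) at PWK 28. The PWK 28 libraries were 358, 386, 215 and 452 in KI and 279, 239, 289 and 286 in WT, so that KI replicate 3 was below all WT libraries and the others above them. Without that library the log2 fold change was 0.54 (adjusted p = 0.0115).

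*Sstr4*, which is enriched in pyramidal neurons of the hippocampus, was lower in KI hippocampus at PWK 14. The KI libraries held 231, 501, 541 and 369 normalized counts and the WT libraries 684, 678, 572 and 728, with no overlap, a log2 fold change of -0.76 (SE 0.24). KI replicate 1 was the lowest, and without it the value was -0.51. At PWK 28 the KI libraries, 345, 494, 513 and 510.1, were again below the WT libraries, 544, 672, 519.7 and 605, but the log2 fold change of -0.34 (adjusted p = 0.107, SE 0.13) did not pass the threshold. Cortical *Sstr4* differed by -0.10 (adjusted p = 0.573, SE 0.09) at PWK 14 and by -0.05 (adjusted p = 0.822, SE 0.14) at PWK 28. *Sstr3* was not called in any genotype comparison. Its log2 fold changes at PWK 14 and 28 were -0.09 and 0.13 for cortex and 0.01 and -0.35 for hippocampus, with 0.02 at PWK 14 without KI replicate 1. The spread among KI libraries was wide, 879 to 1408 normalized counts in cortex at PWK 28 and 799 to 1456 for hippocampus at PWK 14. In hippocampus at PWK 28 the KI libraries were 603, 1006, 868 and 622 against 945, 951, 1041 and 934 in WT, and only without KI replicate 2 was the difference called (-0.49, adjusted p = 0.0207).

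*Npy1r* was lower in KI cortex at both late ages. At PWK 14 the KI libraries held 391, 599, 647 and 595 normalized counts and the WT libraries 1039.5, 1032, 941 and 961. Every KI library was below every WT library, the KI mean was 0.562 of the WT mean, and the log2 fold change was -0.86 (adjusted p = 0.00691, SE 0.14). At PWK 28 the values were 435, 559, 435 and 499 in KI and 901, 771, 742 and 760.2 in WT, again without overlap, with a ratio of 0.607 and a log2 fold change of -0.72 (adjusted p = 0.00115, SE 0.10). Both calls held without any 1 library. In hippocampus at PWK 14 the KI libraries held 578, 712, 680.3 and 889 and the WT libraries 940.3, 932, 878 and 1059, and KI replicate 4 overlapped with WT. The log2 fold change was -0.43 (SE 0.12), and it lay between -0.54 and -0.33 when any 1 library was left out. Without KI replicate 1 it was -0.33 (SE 0.10). At PWK 28 hippocampal *Npy1r* was 882, 996, 847 and 1048 in KI and 857, 866, 801 and 888 in WT, with a log2 fold change of 0.14 (adjusted p = 0.244, SE 0.08). Before the late ages its log2 fold changes in cortex were -0.04 and -0.01 at PWK 1 and 7. In hippocampus at PWK 7 the KI libraries, 1017, 916, 919 and 965, were all below the WT libraries, 1033, 1101, 1214 and 1139, by a log2 fold change of -0.23 (adjusted p = 0.615, SE 0.06), which did not pass the threshold.

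*Npy2r* was lower in KI hippocampus at PWK 28. The KI libraries held 738, 1079, 1083 and 1267 normalized counts and the WT libraries 1538, 1698, 1603 and 1509.6. The groups did not overlap, the KI mean was 0.656 of the WT mean, and the log2 fold change of -0.63 (adjusted p = 0.00872, SE 0.13) was called without any 1 library too, though not in 1 fit of all 64 libraries (adjusted p = 0.0732). At PWK 14 the KI libraries held 2372, 672, 412 and 788 and the WT libraries 2039, 1754, 1598 and 2208. Replicate 1, the library with the high astrocyte and microglial markers, was above every WT library, and the other 3 were below every WT library. The log2 fold change was -1.15 (SE 0.43) with it and -1.64 without it. Cortical *Npy2r*, at a far lower level, was 48.0, 87.2, 70.5 and 74.2 in KI and 99.1, 97.4, 108 and 108 in WT at PWK 28. All KI libraries were below WT, and the log2 fold change of -0.58 (adjusted p = 0.0515, SE 0.19) lay just outside the threshold. It was past it without KI replicate 2 (-0.70, adjusted p = 0.0214), with libraries scaled to equal totals and with only genes of a mean of at least 50. At PWK 14 it was -0.50 (adjusted p = 0.231, SE 0.22) in cortex. *Npy5r*, the neighbour of *Npy1r*, was not called between the genotypes at any age. Its late log2 fold changes were -0.21 (adjusted p = 0.544, SE 0.17) and 0.24 (adjusted p = 0.194, SE 0.12) in cortex and -0.0011 (SE 0.12, and -0.0050 without KI replicate 1) and 0.05 (adjusted p = 0.788, SE 0.10) in hippocampus, while *Npy1r* in the same cortical libraries was at -0.86 and -0.72.

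**Figure D3:**
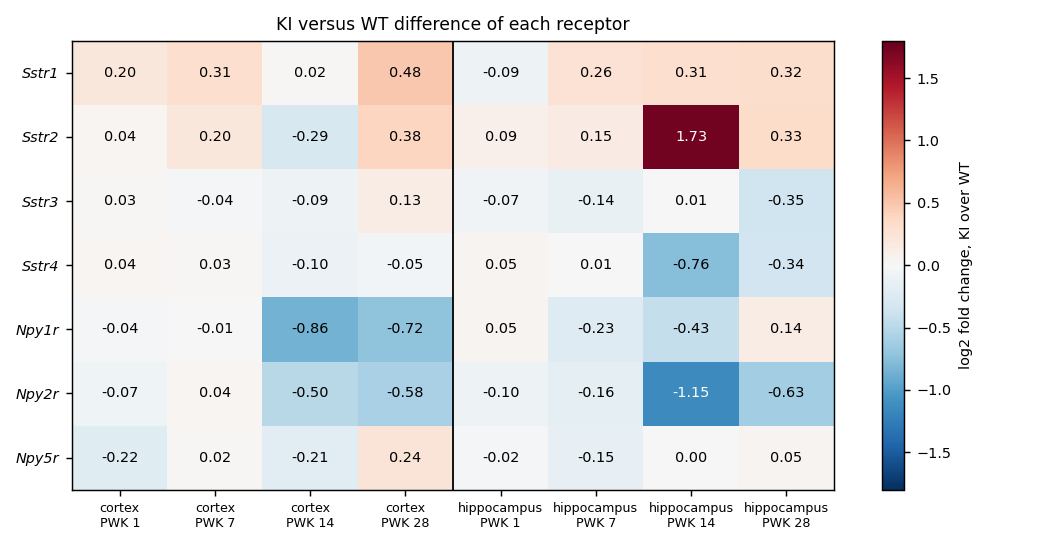
Log2 fold change of KI over WT for each receptor (rows) in each region and postnatal week (columns), fitted on log2(normalized count + 1) in 4 KI and 4 WT libraries; red is higher and blue lower in KI. Values at PWK 1 and 7 stay between -0.23 and 0.31, and the strongest colours are *Sstr2* (1.73) and *Npy2r* (-1.15) in hippocampus at PWK 14.

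Whether the genotype difference depended on the region was examined as the difference between the hippocampal and cortical log2 fold changes in the 16 libraries of an age. No receptor was called at PWK 1 or 7, where limma called 0% and 0.00543% of all genes tested (at PWK 1, 668 genes had an unadjusted p under 0.05, *Sstr1* among them). At PWK 28, where 4.57% of genes tested were called, *Npy1r* was the 1 receptor called. It was lower in KI cortex (-0.72) and not in KI hippocampus (0.14), a difference of 0.86 (adjusted p = 0.00135, SE 0.13). The other 6 differences at PWK 28 were between -0.48 for *Sstr3* and -0.05 for *Npy2r*, with adjusted p between 0.260 and 0.967. At PWK 14, where 2.85% of genes tested were called, *Sstr2* differed by 2.02 (SE 0.17) between the regions, since it was 1.73 in hippocampus and -0.29 in cortex. *Sstr4* differed by -0.66 (SE 0.27), *Npy2r* by -0.65 (SE 0.52) and *Npy1r* by 0.43 (SE 0.20). Without KI replicate 1 of hippocampus, these differences were 2.02 for *Sstr2*, -0.41 for *Sstr4*, -1.15 for *Npy2r* and 0.52 for *Npy1r*. The difference between PWK 28 and PWK 14 in the genotype effect was examined in the same way within a region. Limma called 0% of all genes tested in cortex and 0% in hippocampus, where 2770 and 2274 genes had an unadjusted p under 0.05, so that no receptor was called. *Sstr2* changed by -1.40 (SE 0.24) in hippocampus, from 1.73 to 0.33, and by 0.67 (adjusted p = 0.376, SE 0.35) in cortex. Without that library the hippocampal value of *Sstr2* was -1.40. *Npy1r* changed by 0.57 (SE 0.15) in hippocampus (0.47 without that library) and by 0.13 (adjusted p = 0.765, SE 0.18) in cortex.

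**Figure D4:**
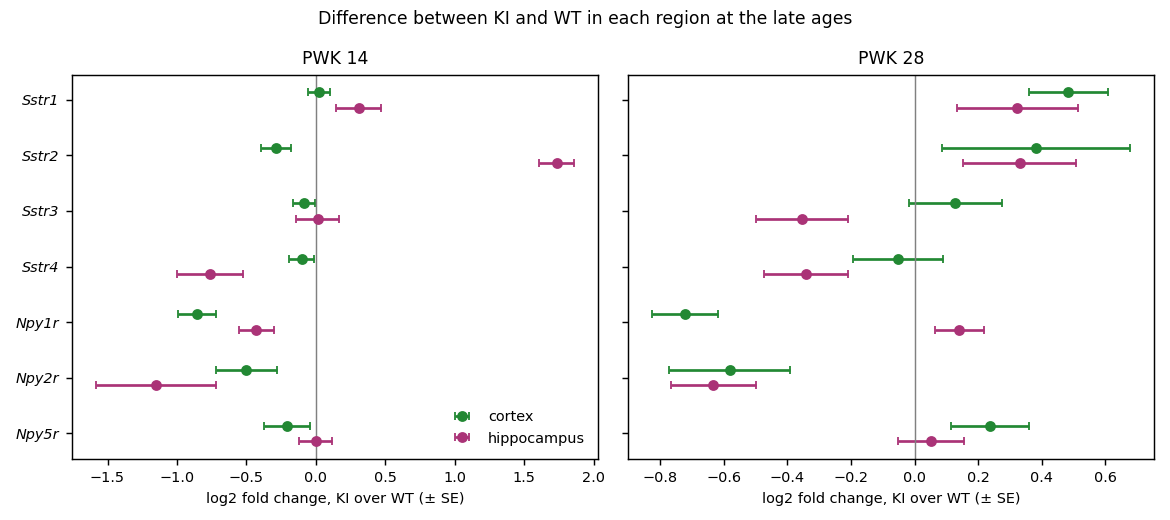
Log2 fold change of KI over WT with its SE for each receptor in cortex (green) and hippocampus (purple) at PWK 14 (left) and PWK 28 (right); x axes differ between panels. *Sstr2* at PWK 14 (1.73 in hippocampus, -0.29 in cortex) and *Npy1r* at PWK 28 (0.14 and -0.72) are the receptors whose regions lie farthest apart.

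The genes of the ligands were also called at the late ages. NPY is the ligand of the 3 NPY receptors, and *Npy* was called higher in KI at PWK 14 and 28 in both regions. In hippocampus at PWK 14 the KI libraries held 9967, 6059, 7972 and 2614 normalized counts and the WT libraries 608, 778, 626 and 707. That is 9.79-fold in the mean and a log2 fold change of 3.14 (adjusted p = 0.00110, SE 0.34), with all KI libraries above all WT libraries. Without KI replicate 1 it was 2.89 (adjusted p = 0.000468). At PWK 28 hippocampal *Npy* was 3823, 2922, 3889 and 3879 in KI and 765, 769, 683 and 755 in WT (2.28, adjusted p = 1.97e-07, SE 0.09). In cortex the log2 fold change was 0.66 (adjusted p = 0.0293, SE 0.15) at PWK 14 and 1.92 (adjusted p = 0.00166, SE 0.29) at PWK 28. RNA of *Sst*, which encodes somatostatin, was called higher in KI cortex at both late ages. At PWK 28 its libraries held 8861, 4853, 7931 and 8108 in KI and 2667, 3534, 3248 and 3076 in WT, a log2 fold change of 1.22 (adjusted p = 0.000882, SE 0.17), after 0.32 (adjusted p = 0.0251, SE 0.07) at PWK 14. In hippocampus *Sst* differed by 0.05 (adjusted p = 0.862, SE 0.15) and 0.13 (adjusted p = 0.335, SE 0.09) at PWK 14 and 28, so that *Sstr2* in hippocampus at PWK 14 was higher in libraries whose *Sst* overlapped with WT. *Cort*, which encodes cortistatin, a related peptide that binds the same somatostatin receptors, was called lower in KI in 3 of the 4 late comparisons. Hippocampal *Cort* at PWK 14 was 11.8, 15.2, 8.69 and 13.9 in KI and 47.3, 64.4, 26.8 and 43.0 in WT (-1.75, adjusted p = 0.00678, SE 0.31), and at PWK 28 the log2 fold change was -0.94 (adjusted p = 0.00895, SE 0.20). In cortex it was -1.12 (adjusted p = 0.0146, SE 0.21) at PWK 14 and -0.82 (adjusted p = 0.113, SE 0.34) at PWK 28. *Sstr5*, the remaining somatostatin receptor, was near the lower limit of the table. In cortex at PWK 28 its libraries held 51.6, 16.6, 90.1 and 15.5 in KI and 6.91, 2.91, 8.32 and 3.05 in WT (2.56, adjusted p = 0.0107, SE 0.57), and in hippocampus 22.5, 42.6, 26.7 and 22.4 and 11.6, 6.15, 1.08 and 6.18 (2.24, adjusted p = 0.0115, SE 0.50). It was also higher in KI hippocampus at PWK 14 (1.74, adjusted p = 0.0339, SE 0.46). Without KI replicate 1, the PWK 14 values in hippocampus were 2.10 for *Sstr5* (adjusted p = 0.00762), -1.74 for *Cort* (adjusted p = 0.00803) and -0.08 for *Sst* (adjusted p = 0.717). At PWK 1 and 7 no ligand and not *Sstr5* was called by limma in either region, with adjusted p of at least 0.0949. Still, all KI libraries were below all WT libraries for *Sst* and *Npy* in 3 of these groups. The KI means of *Sst* and *Npy* were 0.752 and 0.856 of WT in cortex at PWK 7. In hippocampus they were 0.775 and 0.729 at PWK 7, and 0.884 and 0.873 at PWK 1. Both overlapped with WT in cortex at PWK 1. How many of all genes separate in this way was not counted. No gene in the table was matched to *Pyy*, *Ppy*, *Npy4r* or *Npy6r*, so these were not analysed.

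**Figure D5:**
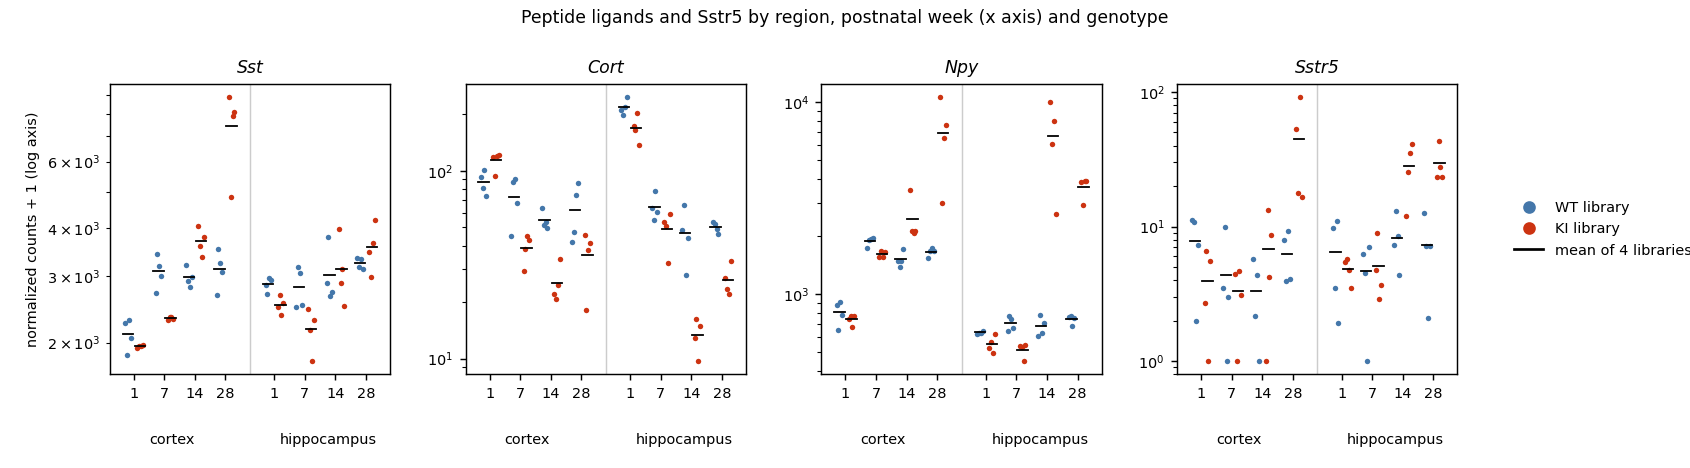
Normalized counts plus 1 (log y axes, which differ between panels) of the ligand genes *Sst*, *Cort* and *Npy* and of *Sstr5* in every library, by postnatal week (x axis) in cortex and hippocampus; blue is WT, red is KI and black lines are the mean of 4. *Npy* in KI hippocampus at PWK 14 lies between 2614 and 9967 and in WT between 608 and 778.

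Genes of G protein signalling and of peptide cleavage were counted from short lists, without a check that they act on these receptors. The lists were chosen with earlier results of these data known. Their counts and medians are therefore a description, and nothing is read from them about a list as a whole. Among 8 RGS proteins, which speed the turning off of G protein alpha subunits, 4 were called higher in cortex at PWK 28, where 12.2% of all genes tested were. In hippocampus 5 were higher at PWK 14, with or without KI replicate 1, and 3 at PWK 28, where 7.64% and 8.92% of all genes were. None was called by limma in cortex at PWK 14 (3 had an unadjusted p under 0.05, list median 0.14), where 2.48% of all genes were higher, and none was lower at a late age. Their median log2 fold change was 0.31, 0.45 and 0.26 in the comparisons with calls, beside medians over all genes of -0.0034, 0.0060 and 0.0037. *Rgs2* (1.45, adjusted p = 0.00239, SE 0.20) and *Rgs4* (1.43, adjusted p = 0.00263, SE 0.20) differed most in hippocampus at PWK 14, and *Rgs10* (0.64, adjusted p = 0.00427, SE 0.12) in cortex at PWK 28. Of 7 receptor kinases and arrestins, which desensitize such receptors, *Grk2* was lower in cortex at PWK 14 (-0.31, adjusted p = 0.0389, SE 0.08) and PWK 28 (-0.42, adjusted p = 0.00481, SE 0.08). *Grk3* was lower in cortex at PWK 28 (-0.59, adjusted p = 0.00609, SE 0.12), and *Grk2* and *Grk3* were lower in hippocampus at PWK 14. *Arrb1* was higher in cortex at PWK 28 and in hippocampus at both late ages. Of 4 GIRK channel genes, *Kcnj9* was the 1 called, lower in cortex at PWK 28 (-0.46, adjusted p = 0.0180, SE 0.12) and in hippocampus at PWK 14 (-0.46, adjusted p = 0.0432, SE 0.13). Of 8 adenylyl cyclases, *Adcy7* was higher (0.81, adjusted p = 0.00181, SE 0.13) and *Adcy8* lower (-1.05, adjusted p = 0.00199, SE 0.17) in cortex at PWK 28. *Adcy1* was lower in hippocampus at PWK 14 (-0.54, adjusted p = 0.0248, SE 0.13), and *Adcy7*, *Adcy5* and *Adcy2* were higher there at PWK 28. Of 5 Gi/o alpha subunits, *Gnai1* was lower in hippocampus at PWK 14 (-0.37, adjusted p = 0.0369, SE 0.10) and PWK 28 (-0.19, adjusted p = 0.0108, SE 0.04), and *Gnaz* was higher and *Gnai2* lower in cortex at PWK 28. The peptidase gene *Mme*, whose product neprilysin can cleave both peptides, was lower in cortex at PWK 28 (-0.77, adjusted p = 0.0371, SE 0.23) and in hippocampus at PWK 14 (-1.08, adjusted p = 0.0435, SE 0.31) and PWK 28 (-0.68, adjusted p = 0.00948, SE 0.15), and *Dpp4* was not called. In cortex at PWK 14, *Grk2* was the only gene called of these lists, outside the ligands. Without KI replicate 1, *Kcnj9* (adjusted p = 0.0508) and *Mme* (adjusted p = 0.0593) were not called in hippocampus at PWK 14, and *Adcy3* and *Adcy7* were called higher. Of all genes tested, limma called 5.18% at PWK 14 and 22.2% at PWK 28 for cortex, against which these counts stand, and 15.6% (17.4% without KI replicate 1) and 15.8% for hippocampus.

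Markers of cell types in the tissue were called in the same comparisons, to be read against the same shares of all genes, 5.18% and 22.2% in cortex and 15.6% and 15.8% in hippocampus. The marker lists too were chosen with earlier results of these data known, so their counts are a description. Of 6 GABAergic interneuron markers, 3 were higher and 1 (*Vip*) lower in KI cortex at each late age, and their summed level was 25704 to 36677 normalized counts in KI and 19477 to 25294 in WT at PWK 28. In hippocampus 1 of the 6 was higher at PWK 14 and 3 at PWK 28. Their summed level there was 18921 to 22046 in KI and 16125 to 17716 in WT at PWK 14, and 18503 to 21899 and 14689 to 16695 at PWK 28. Of 3 excitatory neuron markers, *Camk2a* was lower in cortex at PWK 14 and 28, and *Slc17a7* was higher in cortex and in hippocampus at PWK 28. The summed level of these 3 at PWK 14 was 146742 to 165426 in KI and 174425 to 194467 in WT cortex, and 111755 to 180000 and 161956 to 211474 in hippocampus. For 5 astrocyte markers the hippocampal sum was 187278 to 305644 in KI and 110459 to 134112 in WT at PWK 14, and 166149 to 193611 and 111625 to 119903 at PWK 28. In these hippocampal comparisons 2 and 4 of the 5 were called higher, and 2 and 1 in cortex at PWK 14 and 28, *Gfap* in all 4. Of 4 microglial markers 3 were called higher in hippocampus at PWK 28 and 1 in cortex at PWK 28. Of 4 dentate granule cell markers, *Dsp* was lower in hippocampus at both late ages and *C1ql2* higher at PWK 28. In cortex *C1ql2* was higher at both late ages and *Prox1* and *Calb1* lower at PWK 28. Of 3 cortical layer markers *Cux2* was higher and *Fezf2* lower in cortex at both late ages, and none was called in hippocampus. Of 4 pan-neuronal markers *Syt1* was lower in hippocampus at both late ages, and of 3 endothelial markers *Cldn5* and *Flt1* were lower in cortex at PWK 14. No oligodendrocyte (4 genes) or choroid plexus (3 genes) marker was called by limma at the late ages. None of the markers in these lists was at 0 in any library of PWK 14 or 28. Without KI replicate 1, hippocampal calls at PWK 14 were 5 of 5 astrocyte markers higher, 2 of 6 interneuron markers higher, and 1 excitatory neuron marker higher and 1 lower, and the counts of the other marker lists stayed as they were. The part of these shifts in the receptor values was not tested.

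For each receptor, the genes with the most similar pattern over the 16 group means of log2(value + 1) were listed among 14080 genes with a mean of at least 50, as a description. The 16 points share age, region and the scaling of libraries, and no p is given. *Npy2r* was most like *Il16* (Pearson r = 0.99) and *Cpne7* (0.99), *Npy5r* like *Pip5k1a* (0.98) and *Utp4* (0.98), and *Sstr1* like *Rhov* (0.98) and *Ykt6* (0.97). *Sstr2* was most like *Fam111a* (0.94) and *Mcm5* (0.94), *Sstr3* like *Zbtb38* (0.94) and *Smad7* (0.93), *Sstr4* like *Sipa1l2* (0.92) and *Dapk1* (0.92), and *Npy1r* like *Frzb* (0.88) and *Ryr1* (0.84). Among the receptors themselves, *Sstr1* and *Sstr2* (r = 0.80) and *Sstr3* and *Npy5r* (0.83) were the most alike, and *Sstr1* and *Npy5r* (-0.88) the most opposed. The neighbours *Npy1r* and *Npy5r* had r = 0.10.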

How the data were processed

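RNA from frontal cortex and hippocampus of 32 WT and 32 KI libraries was sequenced. Per the labels, the authors quantified reads with Salmon (0.11.2 in the submitters' processing notes) on GRCm38 transcripts and normalized gene counts with DESeq2 (1.19.11, in R 3.6.0). The deposited signal is that DESeq2-normalized count per gene, not raw reads. Whole reads could not be recovered from it (23.5% to 49.1% of low values were within 0.1 of a whole read), so depth per library is unknown and no counting interval is given. No gene in the table had a mean below 4.25. GENCODE M21 names matched 18420 of 18432 gene IDs.

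Values were taken as log2(value + 1), genes with a mean of at least 1 in the libraries of a fit were kept, and limma 3.58.1 (R 4.3.3) with a trended prior was fitted to the libraries of each comparison, after being tested on simulated data. Fold changes are on this scale, which understates changes of low genes such as *Sstr5*. P-values were adjusted by Benjamini-Hochberg over all genes tested. In all, 22 comparisons were made, 8 of genotype, 4 of region dependence, 2 of age dependence and 8 within WT. The members, the signalling and marker lists, and the rule of naming all 7 receptors, with the list genes called at a late age, were chosen with earlier results of these data known, and 1 marker gene is not reported here. The 4 libraries of a group are separate samples in the labels, which do not name the mice, so p-values measure the spread between these samples. Same replicate numbers were not taken to pair libraries, though pairing cannot be settled from the labels. By the rule used, 17 of 32 cortex and hippocampus pairs and 10 of 32 KI and WT pairs deviated together with a correlation above 0.1. Alternatives were other pseudocounts (0.5, 10), filters (none, 50), equal totals, 1 fit of all libraries, a robust prior, a replicate block and each library left out. Counts of the signalling and marker lists without KI hippocampus replicate 1 of PWK 14 were an alternative chosen after seeing the data. Both regions were dissected from each mouse, but the labels do not tie a cortical to a hippocampal library, so region comparisons treat them as separate. Any sharing of mice between regions is therefore not in the SE or p of those comparisons.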

Additional observations from a re-analysis of the deposited data

Results flagged for a closer look

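In 5 of 112 groups of 4 libraries (7 receptors in 16 groups), 1 library lay far from the other 3 by Dixon's criterion, which chance meets in about 1 group in 20. *Sstr1* was at 262 normalized counts in WT hippocampus replicate 3 at PWK 7, the highest of 188, 189, 262 and 179. *Sstr2* was at 240.4 in KI hippocampus replicate 1 at PWK 7, the lowest of its group. *Sstr3* was at 1041 in WT hippocampus replicate 3 at PWK 28, the highest of its group. *Sstr4* was at 417 in KI cortex replicate 4 at PWK 28, the highest of 304, 319, 309 and 417, and at 345 in KI hippocampus replicate 1 at PWK 28, the lowest of 345, 494, 513 and 510.1.

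The genotype effect of *Npy1r* differed between hippocampus and cortex at PWK 28. The difference was 0.86 on the log2 scale (0.14 in hippocampus, -0.72 in cortex, limma's adjusted p = 0.00135). For *Sstr2* at PWK 14 the corresponding value was 2.02 (1.73 and -0.29), a description and not a test, since the gene was chosen with that contrast known.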

How the results depend on the processing

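Depth per library is unknown, so the spread among 4 libraries sets the precision. No receptor's difference changed sign where it was called. Of 3024 receptor values under the alternatives, 2952 kept their side of the threshold, 29 passed it newly and 43 no longer passed it. The KI and WT comparisons gave 6 calls of receptors (2 of them in hippocampus at PWK 14, a contrast known when the genes were chosen), between 6 and 8 under the other settings and between 5 and 7 with 1 library left out. In WT, the age steps gave 19 calls (15 in 1 fit of all 64 libraries, 17 to 20 with 1 library left out) and the regions gave 20 (18 in that fit, 19 to 22 with 1 left out). In 1 fit of all 64 libraries, region dependence gave 4 calls in place of 2, with *Sstr4* and *Npy1r* at PWK 14 added, and age dependence 2 in place of 0, both in hippocampus (*Sstr2* and *Npy1r*). That fit also put *Sstr4* and *Npy2r* past the threshold in hippocampus at PWK 14, and it lost the call of *Npy2r* in hippocampus at PWK 28 and, in WT, those of *Npy2r* in cortex between PWK 1 and 7, of *Sstr2*, *Sstr3* and *Npy1r* in cortex between PWK 7 and 28, and of *Npy1r* at PWK 7 and *Sstr3* at PWK 14 between regions. Over all genes it made 6050 calls at PWK 14 in hippocampus in place of 2870, 1946 in cortex in place of 951, 2000 and 1320 for region dependence at PWK 14 and 28 in place of 525 and 841, 913 and 469 for age dependence in cortex and hippocampus in place of 0, and 2118 in place of 3216 for WT hippocampus between PWK 7 and 28. The cause was not tested. With 1 library left out, the count for region dependence stayed at 2 (1 of them *Sstr2* at PWK 14, on which nothing rests) and age dependence gave 0 to 2, the calls arising without hippocampus KI replicate 2 or 4 of PWK 14 or KI replicate 1 of PWK 28.

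With the replicate number as a block (genotype and replicate number for region dependence), the 5 families of comparison gave 6, 2, 0, 18 and 20 calls. *Sstr1* in WT hippocampus between PWK 7 and 28 was the 1 call changed. Over all genes, the genotype calls in hippocampus at PWK 14 became 1788 in place of 2870. Those of region dependence rose, to 724 in place of 525 at PWK 14 and 1259 in place of 841 at PWK 28. The correlation of deviations between same-numbered libraries averaged 0.14 for cortex and hippocampus (-0.07 to 0.46) and 0.03 for KI and WT (-0.29 to 0.38), so these results are not read as weaker or stronger effects. In hippocampus at PWK 14, with 1 library left out, the log2 fold change lay between -0.92 and -0.51 for *Sstr4* and between -1.64 and -0.80 for *Npy2r*. These values are a description.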
